A study of Sus scrofa with 3 samples.

Results

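S100 proteins, annexins and galectins were described in 3 pig cell populations. Genes were taken by symbol, as S100 followed by a letter and an optional number, ANXA followed by a number, or LGALS followed by a number, which gave 40 of the 26466 gene symbols in the count tables. They were 18 S100 genes, 12 annexin genes and 10 LGALS genes. The LGALS symbols include LGALS3BP, which encodes a secreted glycoprotein that binds galectin-3 and is not itself a galectin. The populations were peripheral blood mononuclear cells (PBMC), mesenchymal stem cells derived from bone marrow (BM-MSC) and bone marrow cells that attached (BMAC), with 1 library each. The animals, their age and any treatment, the culture of the cells, and any pooling of animals were not given in the sources used here.

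S100 proteins are small calcium-binding proteins of the EF-hand type, most of which work as dimers that change shape when calcium enters the cell and then bind other proteins. A few of them, released by myeloid cells at sites of inflammation, act on receptors of neighbouring cells. Annexins bind phospholipid membranes in the presence of calcium and take part in membrane repair, vesicle traffic and the handling of plasminogen at the cell surface. Some annexins bind an S100 dimer as a partner. Galectins bind galactose-containing sugars on glycoproteins inside and outside the cell, and several galectins made by marrow stromal cells have been studied for their effect on T cells.

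The PBMC library held 15445903 counts, the BM-MSC library 17069344 and the BMAC library 15122997. Levels are given as counts per 1000000 counts of the library (CPM), and ranges in parentheses are 95% intervals that cover counting error only. No molecular identifiers were counted, so the intervals do not allow for copies made by amplification. With 1 library per population no difference has a replicate check, and the comparisons carry neither tests nor p-values. Summed stromal and T cell markers went with the labels: 8 stromal markers summed to 52.3 CPM in PBMC against 13400 in BM-MSC and 11500 in BMAC, and 6 T cell markers to 921, 1.70 and 1.45 CPM. THY1 gave most of the stromal sum in PBMC, at 48.7 CPM, against 364 in BM-MSC and only 69.8 in BMAC. PBMC, BM-MSC and BMAC are bulk samples, so fewer cells of a type and less RNA per cell cannot be told apart. Levels are compared between libraries and not between genes, since capture of the 3' end may differ from gene to gene.

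Members of all 3 families were higher in the marrow cells than in blood cells. A smaller group, LGALS9, S100B and the myeloid genes S100A8 and S100A12, was higher in PBMC, at a share near that of all genes. A gene was called different when its log2 ratio, taken after adding 1 CPM to each level, was at least 2 in size (4-fold) with 10 CPM or more where it was higher. Between BM-MSC and PBMC, 27 of the 40 members reached 10 CPM in at least 1 of the libraries. Of these, 11 were higher in BM-MSC, a share of 40.7% against 14.3% of the 11428 genes above that floor. In the other direction 4 were higher in PBMC, or 14.8% against 15.7% of genes, a share near the background. The median log2 ratio of the 27 members was 1.02, and that of the 11428 genes was -0.16. Over all 40 members, with no floor, the median was 0.65 against -0.06 for all genes. The floor was reached through BM-MSC alone by 6 members and through PBMC alone by 5, and such a member had to be higher there. The 6 were S100A1, S100A2, S100A14, S100A16, ANXA8 and LGALS3, all of them among the 11 called. All 4 members called higher in PBMC were among the 5.

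Between BMAC and PBMC, 25 members reached the floor, 4 of them through BMAC alone and 6 through PBMC alone. Of the 25, 9 were higher in BMAC, or 36% against 14% of 11371 genes, and 4 were higher in PBMC, or 16% against 12.8%. The 9 include the 4 that passed through BMAC alone and so had to be higher there: S100A2, S100A16, ANXA8 and LGALS3. The 4 higher in PBMC all passed through PBMC alone. The median log2 ratio of the 25 members was 0.39 against -0.12 for genes above the floor, and over all 40 members with no floor it was 0.11 against -0.07. PBMC serves in this comparison and in the one before, so the comparisons are not independent of each other. Between BM-MSC and BMAC, 22 members reached the floor, 3 of them through BM-MSC alone and 0 through BMAC alone. Of the 22, 3 were higher in BM-MSC, or 13.6% against 2.9% of 10303 genes, and 0 were higher in BMAC, against 3.21%. Among those called, S100A14 and LGALS3BP passed the floor through BM-MSC alone, so they had to be higher there. The median log2 ratio of the 22 members was 0.63 against -0.09 for genes above the floor. Over all 40 members with no floor it was 0.36 against 0.00.

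Library scaling moved all ratios together. With edgeR's TMM factors and with median-of-ratios factors in place of library totals, the median of genes above the floor became 0.23 and 0.26 for BM-MSC against PBMC and 0.21 and 0.22 for BMAC against PBMC. Among all called genes in the first of these comparisons, 47.6% were higher in BM-MSC by library totals, 58.5% after TMM scaling and 59.5% by median of ratios. For BMAC against PBMC the corresponding shares higher in BMAC were 52.3%, 60% and 60.3%. The counts of members higher in BM-MSC and in BMAC stayed at 11 and 9 with both factors, of 26 and 24 members above the floor. The 4 higher in PBMC became 3 in each comparison, since S100A8 then lay under 10 CPM. Of all genes above the floor, 17.2% and 17.5% were then called higher in BM-MSC than in PBMC, and 12.2% and 11.9% higher in PBMC. For BMAC against PBMC, 16.3% and 16.4% were called higher in BMAC, and 10.8% higher in PBMC with both factors.

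**Figure D1:**
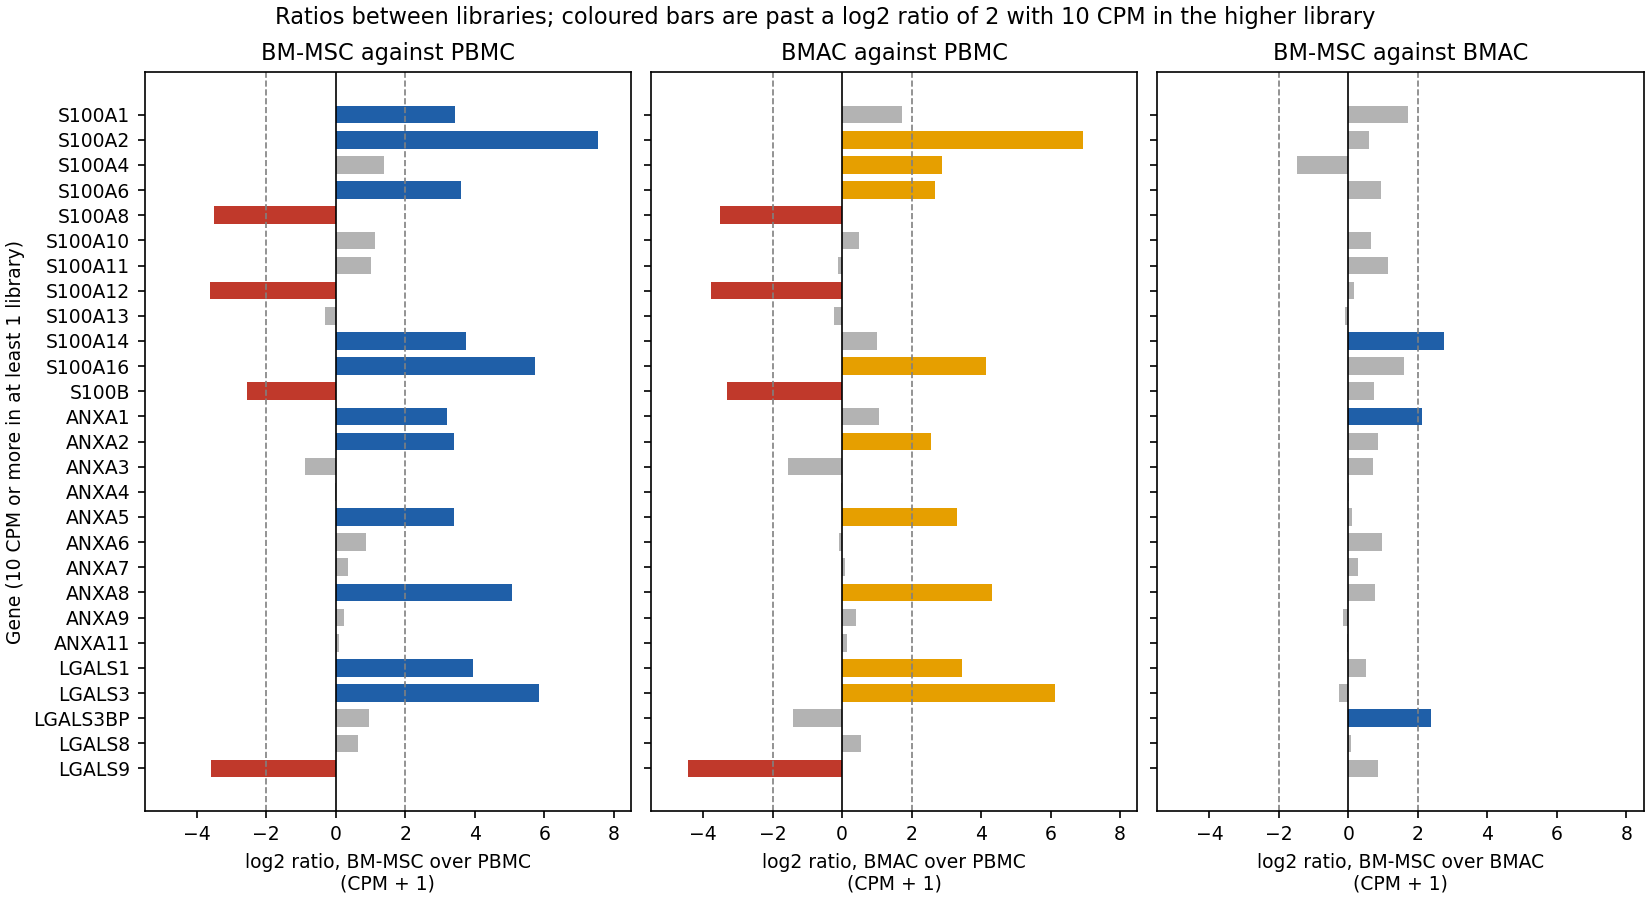
Horizontal bars give the log2 ratio of each of the 27 members that reached 10 CPM in at least 1 library, in 3 panels for BM-MSC against PBMC, BMAC against PBMC and BM-MSC against BMAC, after adding 1 CPM. Bars in the colour of a library (blue BM-MSC, orange BMAC, red PBMC) passed the 4-fold rule in its favour, grey bars did not, and dashed lines mark a log2 ratio of 2 in each direction: 11 blue and 4 red bars stand in the first panel, 9 orange and 4 red in the second, and 3 blue in the third.

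As summed counts, the 40 members took 0.229% of the PBMC library (0.227% to 0.231%), 0.964% of BM-MSC (0.960% to 0.969%) and 0.729% of BMAC (0.725% to 0.734%). S100 genes summed to 956 CPM in PBMC against 4220 in BM-MSC and 3480 in BMAC. Annexin genes summed to 635, 2950 and 1770 CPM in the same order, and LGALS genes to 699, 2480 and 2040 CPM. Each family was therefore lowest in PBMC and highest in BM-MSC on this scale.

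Single genes carried much of these sums. The S100 sum was 4.42-fold higher in BM-MSC than in PBMC (4.34 to 4.50), and 2.54-fold without S100A6 (2.48 to 2.59). Between BM-MSC and BMAC the S100 sum was 1.21-fold higher in BM-MSC (1.20 to 1.23), but without S100A6 the ratio turned to 0.848 (0.835 to 0.861), and without S100A4 it was 1.93 (1.90 to 1.96). The annexin sum was 4.64-fold higher in BM-MSC than in PBMC (4.54 to 4.74) and 2.99-fold without ANXA2 (2.91 to 3.06). For the LGALS sum the BM-MSC to PBMC fold was 3.54 (3.47 to 3.62), 1.86 without LGALS1 (1.81 to 1.90) and 11.4 without LGALS8 (10.9 to 11.9). In BMAC against PBMC the LGALS fold was 2.92 (2.86 to 2.99), 1.79 without LGALS1 (1.74 to 1.83) and 8.66 without LGALS8 (8.28 to 9.05). LGALS8 thus weighed most in PBMC, where it gave 79.8% of the family's counts, against 35% in BM-MSC and 40% in BMAC.

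**Figure D2:**
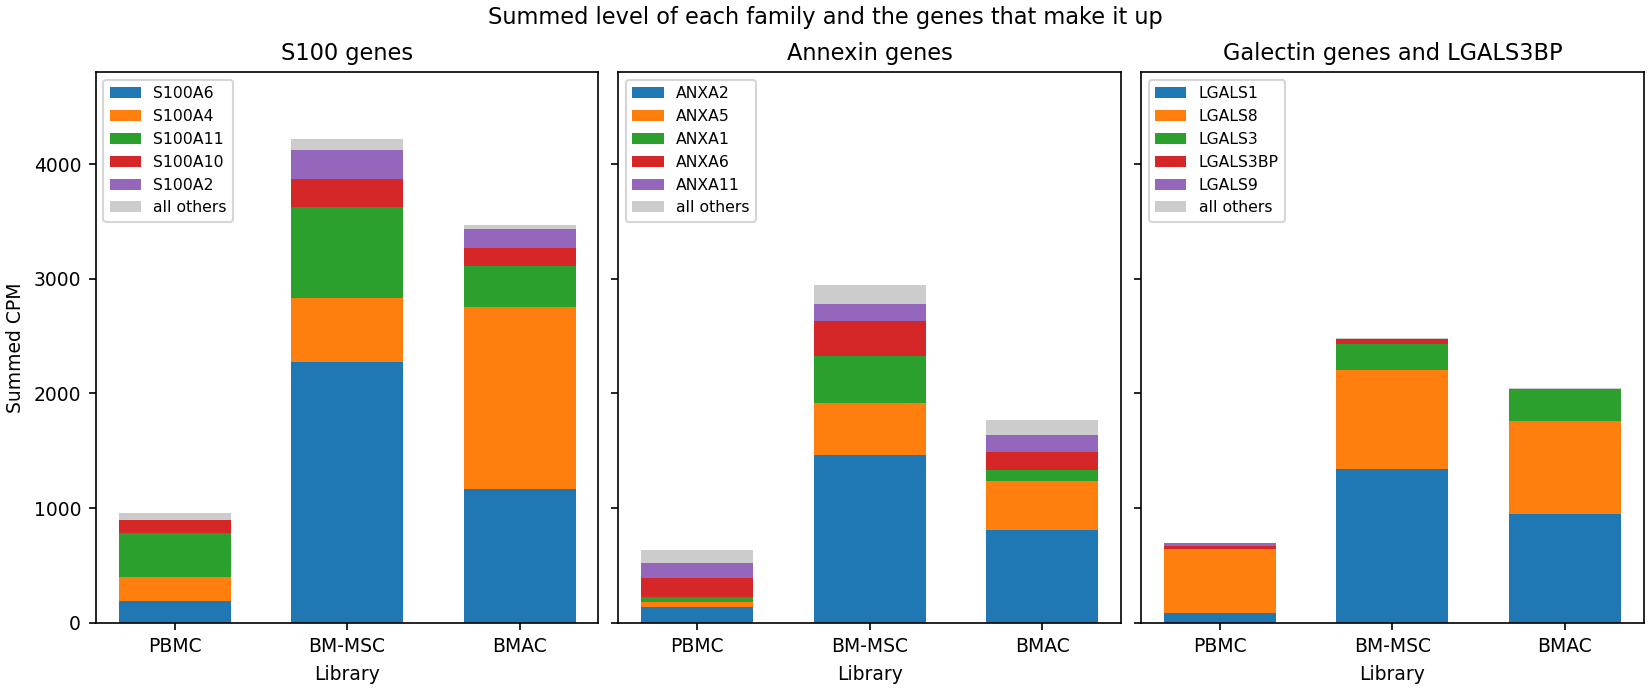
Stacked bars show the summed CPM of S100 genes, annexin genes and LGALS genes in each library, with the 5 members of the highest level in any library coloured and the rest in grey. The S100 bar of BM-MSC, 4220 CPM tall, is made up mostly of S100A6, and the bar of BMAC, 3480 CPM tall, mostly of S100A4 and S100A6.

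S100A6 gave the largest share of S100 counts in BM-MSC, 53.7%, and S100A4 in BMAC, 45.5%. S100A6, or calcyclin, a partner of the ubiquitin ligase adaptor CACYBP, stood at 186 CPM in PBMC against 2270 in BM-MSC and 1170 in BMAC. It was 12.2-fold higher in BM-MSC than in PBMC (11.8 to 12.7) and 6.33-fold higher in BMAC than in PBMC (6.08 to 6.59). S100A4, which binds non-muscle myosin and is widely used as a fibroblast marker, was measured at 213, 562 and 1580 CPM in PBMC, BM-MSC and BMAC. BMAC was the high library for S100A4 and BM-MSC for S100A6.

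S100A4 was 7.41-fold higher in BMAC than in PBMC (7.15 to 7.69), past the rule, and 2.63-fold higher in BM-MSC than in PBMC (2.53 to 2.74), short of it. Within BM-MSC there were 4.03 counts of S100A6 for each count of S100A4 (3.95 to 4.13), against 0.742 in BMAC (0.728 to 0.757) and 0.869 in PBMC (0.827 to 0.914). This ratio of neighbouring genes does not depend on how libraries are scaled. It was 5.44-fold higher in BM-MSC than in BMAC (5.28 to 5.6, by the normal approximation on the log scale, as for the other changes of a ratio below).

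A further set of S100 genes was at a few counts in PBMC and clearly detected in BM-MSC. S100A2, studied mostly in epithelia, had 5 counts in PBMC (0.324 CPM) against 4177 in BM-MSC (245 CPM) and 2440 in BMAC (161 CPM). S100A16, a broadly expressed S100 protein, had 1, 945 and 268 counts, or 0.0647, 55.4 and 17.7 CPM. S100A14, also best known from epithelia, had 8, 333 and 31 counts, or 0.518, 19.5 and 2.05 CPM. All 3 genes were lowest in PBMC and highest in BM-MSC, with BMAC between.

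S100A2 was 756-fold higher in BM-MSC than in PBMC (324 to 2330) and 498-fold higher in BMAC than in PBMC (213 to 1540). The S100A16 fold over PBMC was 855 in BM-MSC (153 to 33800) and 274 in BMAC (48.7 to 10900), with wide intervals because PBMC held a single count. S100A14 was 37.7-fold higher in BM-MSC than in PBMC (18.9 to 88.0) and 9.52-fold higher in BM-MSC than in BMAC (6.58 to 14.2), while BMAC and PBMC were both under 10 CPM. The 5 epithelial markers with a row summed to 14.2 CPM in PBMC against 2.34 in BM-MSC and 2.05 in BMAC, with CDH1 at 13.4 CPM of the PBMC sum. KRT5 and KRT18 had 0 counts in PBMC and BM-MSC, and 1 and 4 counts in BMAC. The part of epithelial cells in the S100 values was not tested. S100A16 changed less than S100A14 between the marrow libraries, since the ratio of S100A16 to S100A14 counts was 2.84 in BM-MSC (2.50 to 3.23) and 8.65 in BMAC (5.95 to 13.0).

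S100A1, known from heart and skeletal muscle, stood at 0.518 CPM in PBMC against 15.2 in BM-MSC and 3.97 in BMAC. It was 29.4-fold higher in BM-MSC than in PBMC (14.7 to 68.8), a call lost with a pseudocount of 5 CPM. S100A13, which takes part in the release of growth factors that lack a signal peptide, stood at 14, 11 and 11.8 CPM with overlapping intervals, and its direction against PBMC flipped with median-of-ratios factors. The genes of S100A1 and S100A13 overlap in the RefSeq annotation, and the strand setting of the counting is not given in the sources used here, so reads of one could be counted for the other and both values are uncertain.

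S100A10 and S100A11, S100 proteins with an annexin partner, were found in all 3 libraries, and neither of them passed the 4-fold rule in any comparison. S100A10, which binds ANXA2 and does not need calcium to do so, stood at 113 CPM in PBMC against 251 in BM-MSC and 159 in BMAC. S100A11, which binds ANXA1, stood at 388, 790 and 361 CPM. BM-MSC was the high library for both genes, by 2.22-fold (2.10 to 2.35) and 2.04-fold (1.97 to 2.10) over PBMC. The S100A11 log2 ratio of BMAC over PBMC was -0.11 by library totals and turned to 0.18 with TMM factors and 0.19 with median-of-ratios factors.

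The myeloid S100 genes were found in PBMC and hardly at all in the marrow cells. S100A8, which forms calprotectin with S100A9, had 159 counts in PBMC (10.3 CPM) and 0 in BM-MSC and BMAC, at least 58.6-fold and 51.9-fold lower when 3 counts are taken as the limit that a count of 0 allows. S100A9 had 18 counts in PBMC (1.17 CPM) and 0 in the others, under the floor throughout. S100A12, a ligand of the receptor AGER, had 195 counts in PBMC (12.6 CPM) against 2 in BM-MSC and 0 in BMAC. It was 108-fold higher in PBMC than in BM-MSC (29.4 to 896) and at least 63.6-fold higher than in BMAC. A count of 0 allows up to 0.176 CPM in BM-MSC, with 0.198 CPM in BMAC, so traces under that level were not detectable at this depth.

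Levels of S100A8 and S100A12 in PBMC were close to the 10 CPM floor, and with a pseudocount of 5 CPM neither was called in either comparison. Summed myeloid markers were also highest in PBMC, though not each of them. The 8 monocyte markers summed to 655 CPM in PBMC against 8.67 in BM-MSC and 19.9 in BMAC, where LYZ and FCER1G had 0 counts and CD14 stood at 17.3 CPM, above its 12.9 CPM in PBMC. Their highest members in PBMC were TYROBP, at 223, 2.28 and 0.198 CPM in the same order, and ITGAM, at 130, 1.58 and 1.26 CPM. The 7 granulocyte markers with a row summed to 40.1, 6.97 and 1.79 CPM, with ELANE at 0 counts in PBMC and BM-MSC and LCN2 higher in BM-MSC (5.68 CPM) than in PBMC (0.453 CPM). The part of these cell types in the S100 values was not tested.

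Of the other S100 genes, only S100B reached the floor. S100B, best known from glia, stood at 13.5 CPM in PBMC against 1.46 in BM-MSC and 0.463 in BMAC, or 9.24-fold (6.09 to 14.6) and 29.2-fold (13.9 to 73.6) higher in PBMC. With a pseudocount of 5 CPM S100B was called in neither comparison. The glial gene SOX10 had 0 counts in every library. Summed monocyte, T cell, NK cell and B cell markers were highest in PBMC, like S100B and S100A8, though CD14 was highest in BMAC. The part of these cell types in the S100B level was not tested. S100Z had 23 counts in PBMC and 0 in the marrow cells, S100A3 had 0, 13 and 14 counts and S100A5 had 0, 10 and 6 in PBMC, BM-MSC and BMAC. S100G, the intestinal calbindin, had 13, 0 and 12 counts and overlaps CTPS2, which stood at 70.8 CPM in PBMC, so its value is uncertain. S100A7, the skin protein psoriasin, had 0 counts in every library.

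**Figure D3:**
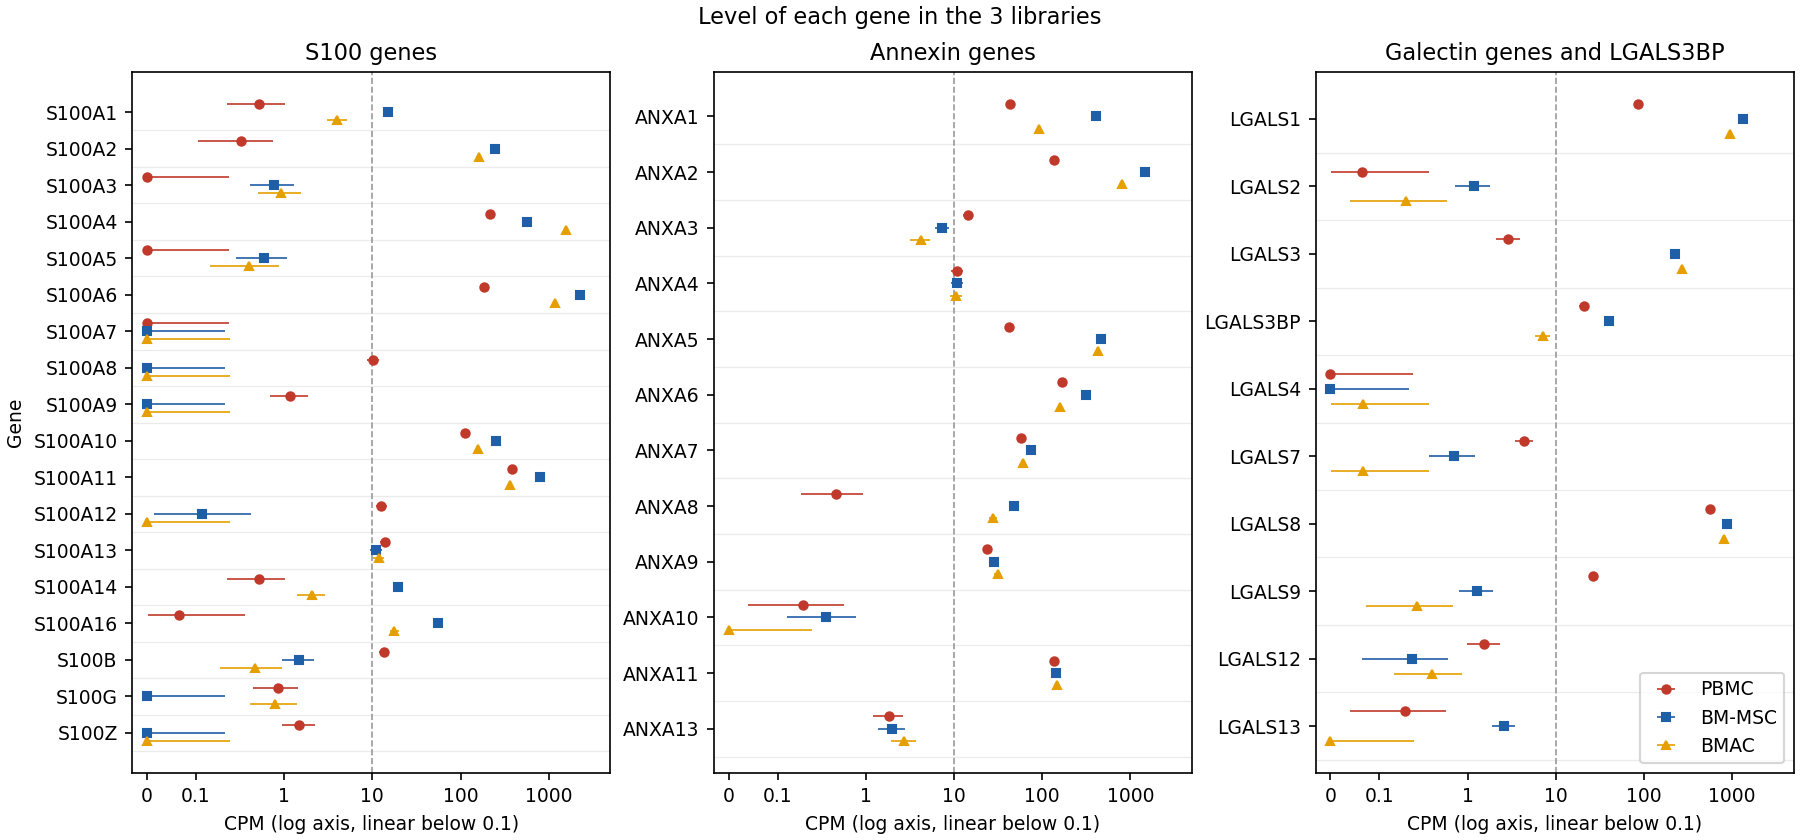
Points give the CPM of each of the 40 members in PBMC (red circles), BM-MSC (blue squares) and BMAC (orange triangles), on a log axis that is linear below 0.1 CPM, in panels for S100, annexin and LGALS genes. Horizontal lines are 95% Poisson intervals of the counts and the dashed line marks 10 CPM: S100A2, S100A16, ANXA8 and LGALS3 show PBMC far to the left of both marrow libraries, and S100A8, S100A12, S100B and LGALS9 show it to the right.

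Of the 18 S100 genes, 15 lie in a row on one chromosome, and in summed CPM the libraries differed by stretch of that row. The order was taken from RefSeq and limited to genes of the count tables. In this order the first stretch runs S100A1, S100A13, S100A14, S100A16, S100A2, S100A3, S100A4, S100A5, S100A6 with no other gene between them. These 9 genes summed to 414 CPM in PBMC against 3180 in BM-MSC and 2960 in BMAC. Most of the sum in BM-MSC and BMAC came from S100A6 (2270 and 1170 CPM) and S100A4 (562 and 1580 CPM). The next stretch, S100A7, S100A8, S100A12 and S100A9, is set apart from S100A6 by 1 gene with 0 counts, has another such gene after S100A7, and summed to 24.1, 0.117 and 0 CPM. Nearly all of this PBMC sum came from S100A8 and S100A12, at 10.3 and 12.6 CPM, close to the floor. S100A11 and S100A10 follow after 33 other genes, none above 1.55 CPM in any library, and summed to 501, 1040 and 520 CPM.

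The summed level was thus higher in the marrow libraries for the first stretch and higher in PBMC for the next, with exceptions among single genes of the first. S100A13 had overlapping intervals between libraries, and S100A3 and S100A5 stayed under 1 CPM beside S100A2, S100A4 and S100A6. S100-fused genes, which encode large skin proteins with an S100 domain, lie in the same region and were at or near 0: TCHH, TCHHL1, HRNR, CRNN and RPTN had at most 1 count in any library.

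**Figure D4:**
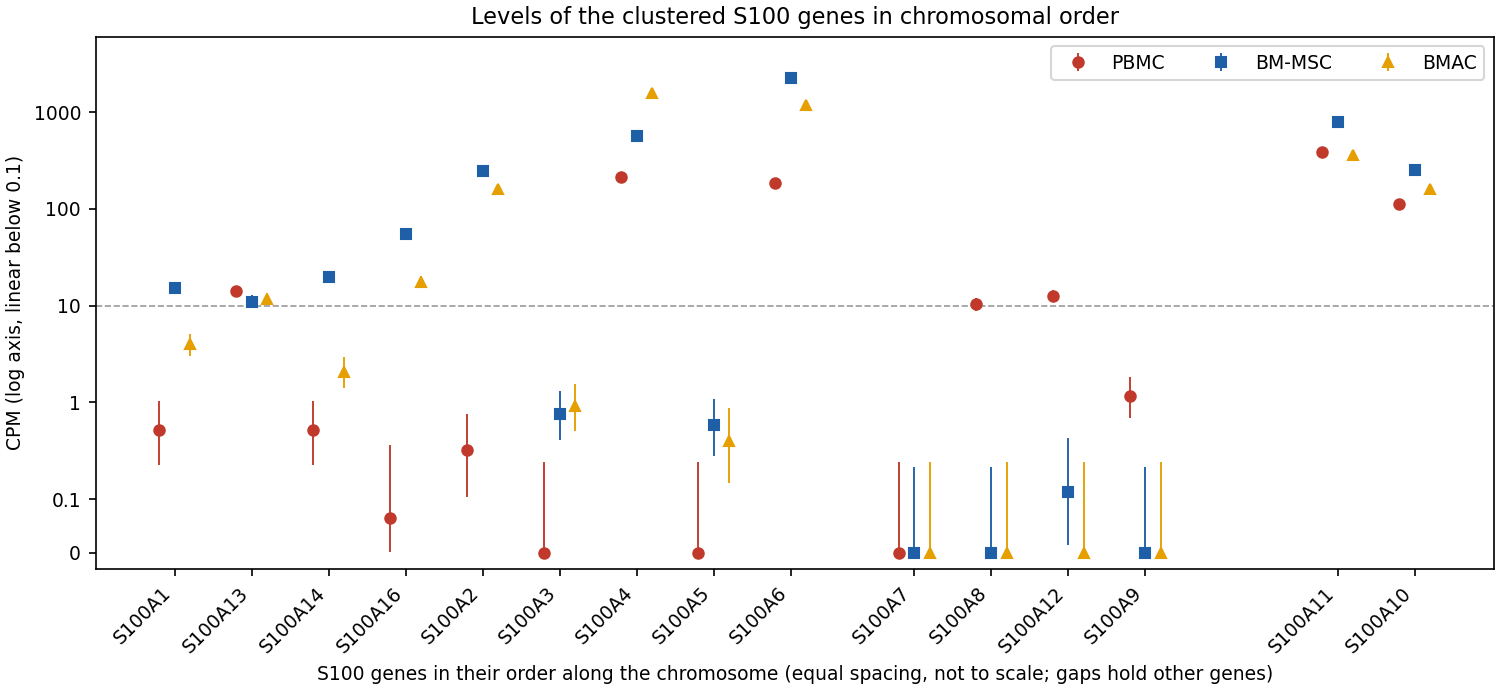
CPM of the 15 clustered S100 genes is plotted on a log axis (linear below 0.1 CPM) in their order along the chromosome, at equal spacing, with gaps where other genes lie between, for PBMC (red circles), BM-MSC (blue squares) and BMAC (orange triangles). Vertical lines are 95% Poisson intervals: the marrow libraries lie above PBMC for S100A14, S100A16, S100A2, S100A4 and S100A6, while PBMC is the 1 library above 10 CPM for S100A8 and S100A12.

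Of the annexin genes, ANXA1, ANXA2, ANXA5 and ANXA8 were called higher in BM-MSC than in PBMC, and all of these but ANXA1 in BMAC as well. In the PBMC direction 0 of 10 were called in either comparison, where 15.7% and 12.8% of all genes were. Of 12 annexin genes, 10 reached 10 CPM in at least 1 library and 8 in all 3. ANXA2, which gathers plasminogen and its activator at the cell surface, stood at 137 CPM in PBMC against 1460 in BM-MSC and 811 in BMAC. ANXA5, which binds phosphatidylserine, stood at 42.4, 459 and 426 CPM. ANXA1, a glucocorticoid-induced protein with anti-inflammatory actions, stood at 43.0, 403 and 91.2 CPM. BMAC lay near BM-MSC for ANXA5 and nearer to PBMC for ANXA1.

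ANXA2 was 10.7-fold higher in BM-MSC than in PBMC (10.2 to 11.2) and 5.92-fold higher in BMAC than in PBMC (5.66 to 6.21). The ANXA5 folds over PBMC were 10.8 in BM-MSC (10 to 11.7) and 10.1 in BMAC (9.28 to 10.9). ANXA1 was 9.37-fold higher in BM-MSC than in PBMC (8.66 to 10.2), but 2.12-fold higher in BMAC than in PBMC (1.93 to 2.33), which did not pass the rule. ANXA1 was the 1 annexin called between the marrow libraries, 4.42-fold higher in BM-MSC (4.17 to 4.69), with a log2 ratio of 2.13 close to the limit.

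ANXA8, an annexin with anticoagulant activity, had 7 counts in PBMC against 813 in BM-MSC and 420 in BMAC, or 0.453, 47.6 and 27.8 CPM. It was 105-fold higher in BM-MSC than in PBMC (50.8 to 262) and 61.3-fold higher in BMAC than in PBMC (29.5 to 153). PBMC was far below both marrow libraries for ANXA8 and the one library below 10 CPM.

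The remaining annexins did not pass the rule in any comparison. ANXA6, the largest annexin, stood at 168 CPM in PBMC against 310 in BM-MSC and 158 in BMAC, 1.84-fold higher in BM-MSC than in PBMC (1.75 to 1.93), and its BMAC to PBMC log2 ratio turned from -0.09 to 0.19 with TMM factors. ANXA7, which binds the calcium sensor sorcin, stood at 57.6, 74.2 and 60.9 CPM. ANXA11, which also binds the calcium sensor PDCD6, stood at 135, 145 and 148 CPM. ANXA4 stood at 10.9, 10.8 and 10.6 CPM. The libraries overlapped in counting error for ANXA4. For ANXA11 neighbouring libraries overlapped, but BMAC (142 to 155 CPM) lay just above PBMC (129 to 141 CPM). The direction flipped with TMM factors for ANXA4 against PBMC and for ANXA11 between the marrow libraries.

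ANXA3, abundant in neutrophils, was higher in PBMC than in the marrow libraries beyond counting error, at 14.4 CPM in PBMC against 7.38 in BM-MSC and 4.17 in BMAC. It was 1.95-fold (1.56 to 2.44) and 3.45-fold (2.60 to 4.64) higher in PBMC than in BM-MSC and BMAC, short of the rule. ANXA9, an annexin with altered calcium-binding sites, stood at 23.8, 28.1 and 31.5 CPM and overlaps MINDY1, which held 71.2% to 105% as many counts, so its value is uncertain. ANXA13 and ANXA10, annexins of the gut, stayed at or below 2.71 CPM.

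ANXA2 and S100A10 did not change in step, and neither did ANXA1 and S100A11. For each count of S100A10 there were 1.21 counts of ANXA2 in PBMC (1.13 to 1.29) against 5.81 in BM-MSC (5.62 to 6) and 5.09 in BMAC (4.87 to 5.32). Relative to S100A10, ANXA2 was thus 4.80-fold higher in BM-MSC than in PBMC (4.47 to 5.16) and 4.21-fold higher in BMAC than in PBMC (3.89 to 4.54). The marrow libraries were close to each other in this ratio, which differed 1.14-fold (1.08 to 1.21). For ANXA1 and S100A11 the ratio was 0.111 in PBMC (0.102 to 0.120) against 0.510 in BM-MSC (0.495 to 0.525) and 0.253 in BMAC (0.238 to 0.268). Here BMAC was at neither end, 2.28-fold above PBMC (2.07 to 2.52) and 2.02-fold below BM-MSC (1.89 to 2.15).

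Galectins split by member. LGALS1, which encodes galectin-1, a dimeric galectin known to limit T cell survival, stood at 85.5 CPM in PBMC against 1340 in BM-MSC and 945 in BMAC. LGALS3, which encodes galectin-3, the chimeric galectin that can form larger assemblies, stood at 2.91 CPM in PBMC against 226 in BM-MSC and 272 in BMAC. LGALS9, which encodes galectin-9, reported as a ligand of the T cell receptor HAVCR2, stood at 26.4, 1.29 and 0.264 CPM. Marrow libraries were the high ones for LGALS1 and LGALS3 and PBMC for LGALS9.

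LGALS1 was 15.7-fold higher in BM-MSC than in PBMC (14.8 to 16.6) and 11.1-fold higher in BMAC than in PBMC (10.5 to 11.7). The LGALS3 folds over PBMC were 77.7 in BM-MSC (58.0 to 107) and 93.4 in BMAC (69.7 to 128). LGALS3 therefore differed from PBMC by more than LGALS1 did: 29.3 counts of LGALS1 were found for each count of LGALS3 in PBMC (21.8 to 40.4) against 5.91 in BM-MSC (5.71 to 6.12) and 3.47 in BMAC (3.35 to 3.60). LGALS9 was 20.4-fold higher in PBMC than in BM-MSC (13.3 to 33.0) and 99.6-fold higher than in BMAC (38.6 to 367), where it had 4 counts. Summed B cell, T cell and monocyte markers were also higher in PBMC, though CD14 stood at 17.3 CPM in BMAC against 12.9 in PBMC. The part of these cell types in the LGALS9 level was not tested.

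LGALS8, whose product marks damaged endosomes and bacteria inside the cell, was found in all libraries at 558 CPM in PBMC against 867 in BM-MSC and 818 in BMAC. It differed 1.55-fold between BM-MSC and PBMC (1.51 to 1.60) and 1.06-fold between the marrow libraries (1.03 to 1.09). LGALS3BP stood at 20.7 CPM in PBMC against 40.7 in BM-MSC and 7.08 in BMAC, and was 5.75-fold higher in BM-MSC than in BMAC (4.69 to 7.12), past the rule. LGALS3 and LGALS3BP went in opposite directions between the marrow libraries: the ratio of LGALS3 to LGALS3BP counts was 5.56 in BM-MSC (5.13 to 6.04) and 38.5 in BMAC (31.8 to 47.1).

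The other LGALS genes stayed below 10 CPM. LGALS7, a galectin of stratified epithelia, had 68 counts in PBMC against 12 in BM-MSC and 1 in BMAC, and LGALS13, a placental galectin, had 3, 44 and 0. With a floor of 1 CPM LGALS7, which passed it through PBMC alone, was called higher in PBMC than in BMAC (log2 ratio -2.34). This made 5 such members of 32 above that floor, where 9.88% of all genes were called. LGALS12, an adipocyte galectin that overlaps HRASLS5, had 24, 4 and 6 counts, LGALS2 had 1, 20 and 3, and LGALS4, a galectin of the gut, had 1 count in all. The adipocyte genes ADIPOQ and PLIN1 were at most 1.55 CPM in any library.

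BMAC lay nearer to BM-MSC than to PBMC on the log2 scale for 20 of the 27 members at the floor, and nearer to PBMC for 7: S100A10, S100A11, S100A14, ANXA1, ANXA6, ANXA7 and LGALS3BP. The 7 make up 25.9%, near the 27.1% of all 11861 genes at the floor. S100A1, counted with the 20, lay at a log2 distance of 1.71 from both. With TMM and median-of-ratios scaling 6 and 5 members were nearer to PBMC, S100A10 and ANXA7 were no longer among them, and S100A13 was with TMM. The order BM-MSC, BMAC, PBMC from high to low was found for 13 members, or 48.1% against 22.2% of all genes. For 12 of these no intervals of neighbouring libraries overlapped, or 44.4% against 13.3%. For 9 members at least 1 pair of neighbours overlapped, and for ANXA4, ANXA9, ANXA11 and S100A13 both pairs did. The outer libraries in that order, BMAC and PBMC, were still apart for ANXA9 and ANXA11. BMAC was above both others beyond the intervals for S100A4 and LGALS3, and below both for S100A11, ANXA3, LGALS3BP and LGALS9. These are 7.41% and 14.8% of the members, beside 17.2% and 10.2% of all genes. S100A11 lost this place with TMM factors and by median of ratios, as given above, and its BMAC to PBMC log2 ratio was -0.05 with totals that leave out ribosomal RNA and mitochondrial rows.

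Between the marrow libraries the members called were S100A14, ANXA1 and LGALS3BP, all higher in BM-MSC. The members next to the limit were S100A1, with a log2 ratio of 1.71 toward BM-MSC, and S100A4, with -1.49, or 2.82-fold higher in BMAC (2.75 to 2.88). With a pseudocount of 5 CPM 1 call was left, that of ANXA1, and S100A14 and LGALS3BP were no longer called.

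Of the receptors and partners of the S100 proteins, BSG was higher in the marrow libraries and CD36 in PBMC. Among 10 genes of S100 receptors and partners, 8 reached the floor between BM-MSC and PBMC, with 1 call toward BM-MSC and 1 toward PBMC (median log2 ratio -0.22), where 14.3% and 15.7% of all genes were called. BSG, or basigin, a receptor of S100A9, stood at 30.9 CPM in PBMC against 192 in BM-MSC and 199 in BMAC, 6.21-fold (5.64 to 6.85) and 6.44-fold (5.85 to 7.11) above PBMC. CD36, a scavenger receptor, stood at 14.2, 2.52 and 3.11 CPM, 5.63-fold higher in PBMC than in BM-MSC (4.04 to 8). MYH9, the myosin heavy chain that S100A4 binds, was highest in BMAC like S100A4, at 314 CPM in PBMC against 627 in BM-MSC and 940 in BMAC. AGER had 2, 0 and 1 counts and TLR4 stood at 2.07, 3.98 and 5.55 CPM, and both of these receptors were under the floor in every library. Between BMAC and PBMC 1 of 8 was called, BSG, toward BMAC, where 14% of all genes were. Between BM-MSC and BMAC 0 of 7 were called, against 2.9% of all genes toward BM-MSC and 3.21% toward BMAC.

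Among the 8 annexin partners with a row, 6 reached the floor in each comparison. PLAT, the tissue plasminogen activator that ANXA2 binds, had 8 counts in PBMC (0.518 CPM) against 277 in BM-MSC (16.2 CPM) and 217 in BMAC (14.3 CPM), 31.3-fold (15.7 to 73.3) and 27.7-fold (13.8 to 65.0) above PBMC. CTSB, a lysosomal protease, stood at 244, 1090 and 668 CPM, 4.45-fold higher in BM-MSC than in PBMC (4.30 to 4.61). PLAT and CTSB were the 2 partners called in BM-MSC against PBMC (median log2 ratio of the 6 genes 1.04), PLAT the 1 in BMAC against PBMC, and 0 were called between the marrow libraries. Of all genes, 14.3% were called higher in BM-MSC than in PBMC and 14% higher in BMAC than in PBMC. Between the marrow libraries 2.9% were called toward BM-MSC and 3.21% toward BMAC. PDCD6 was 2.43-fold higher in BM-MSC than in PBMC (2.18 to 2.72), short of the rule.

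Genes of galectin ligands and partners went both ways. Of 13 genes, 10 reached the floor between BM-MSC and PBMC, with 2 calls toward BM-MSC and 3 toward PBMC (median log2 ratio 0.96). Over all genes the shares called were 14.3% and 15.7%. Between BMAC and PBMC 1 and 3 of 10 were called, where 14% and 12.8% of all genes were. PTPRC (CD45), a glycoprotein of leukocytes that galectin-1 binds, stood at 2880 CPM in PBMC against 1.11 in BM-MSC and 1.85 in BMAC. SPN (CD43), another such ligand, had 1331 counts in PBMC and 0 in the marrow cells, at least 490-fold more than in BM-MSC. MGAT5, which builds the branched sugars that galectins bind, was 8.5-fold higher in PBMC than in BM-MSC (8.01 to 9.03), at 611 against 71.9 CPM, and stood at 104 CPM in BMAC. The genes higher in BM-MSC were ITGB1 and P4HB. Between the marrow libraries 0 of 8 genes were called, against 2.9% of all genes toward BM-MSC and 3.21% toward BMAC. HAVCR2 had 53 counts in PBMC against 0 in BM-MSC and 3 in BMAC.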

How the data were processed

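The authors deposited raw counts per gene for each library, as whole numbers with unequal totals. Lexogen QuantSeq libraries were made from Trizol-extracted RNA, per the labels' protocols. Bowtie2 and bedtools are named per the submitters' processing notes, with the build, annotation and strand setting not given in the sources used here. Rows sharing a symbol were summed (81 symbols, 0 of them members). All 26466 symbols matched the RefSeq table of Sscrofa11.1, used for overlaps and gene order only. A member was uncertain when an overlapping gene held at least 25% of its count in any library.

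CPM used library totals. Intervals were exact Poisson for levels, exact Clopper-Pearson for shares and conditional for folds. A fold against 0 counts used 3 counts in that library and is written "at least". The rule was checked on simulated counts. Alternatives covered scaling (edgeR 4.0.16 TMM, median of ratios, totals without ribosomal RNA and mitochondrial rows), pseudocount, floor, size limit and overlapping genes. Python 3.11.15 and scipy 1.17.1 were used.

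Members and lists were chosen with earlier results of these data known. By rule, members at 10 CPM in any library were described, with up to 5 of the others and the 3 genes of each partner list that had the largest log2 ratio. The other low members, AGER, TLR4, P4HB, ITGB1 and HAVCR2 were added after their values were seen. Results of the remaining lists, all from CPM sums in PBMC, BM-MSC and BMAC, were 207, 1.35 and 0.595 for 5 NK cell markers, 2000, 4.39 and 4.17 for 5 B cell markers, 35.5, 47.9 and 37.2 for 4 platelet markers, 7.64, 1.17 and 1.12 for 5 erythroid markers and 164, 18.5 and 32.2 for 5 endothelial markers. The sum of 1 further marker list is not reported here. No sequences were used here.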

Additional observations from a re-analysis of the deposited data

How the results depend on the processing

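No paired analysis was possible because each population had 1 library, and for the same reason no library could be left out. Of 31 called gene ratios 0 reversed under the 3 other scalings; pseudocount, floor and size limit cannot turn a sign. Calls lost were 2 each with TMM and median-of-ratios factors, 15 at the 50 CPM floor, 9 after adding 5 CPM and 7 with a log2 limit of 3. The alternatives without LGALS3BP, without single genes of a sum, and for the nearness of BMAC were chosen after seeing the data. With a pseudocount of 5 CPM, 1 member was higher in PBMC against BM-MSC (LGALS9; 11% of all genes were), 1 against BMAC (LGALS9; 9.26%), and 1 was higher in BM-MSC against BMAC (1.71%). With a floor of 50 CPM these counts were 0, 0 and 1, against 20.3%, 15.7% and 2.88% of genes. A log2 limit of 1 gave 6 members higher in BM-MSC and 1 in BMAC between the marrow libraries (8.2% and 11.1% of genes), and a limit of 3 gave 0 higher in BM-MSC (1.37%). Without S100A6 the summed S100 ratio of BM-MSC over BMAC turned to 0.848. Levels under about 0.2 CPM lie at the limit of 3 counts and could not be told from 0.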
